A study of Mus musculus with 23 samples.

Results

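Lum, Dcn, Bgn, Fmod, Ogn, Prelp and Aspn encode 7 small leucine-rich proteoglycans of the extracellular matrix, and their messenger RNA was followed in the circumvallate papilla of mice, a large taste papilla near the root of the tongue. They were taken from the scanner files by gene name, each has 1 probe on the array, and all 7 were among the 28388 genes kept for testing. They were chosen with results of these same arrays in view, and Lum, put first, had been selected on its difference between DIO and Lean. The 23 samples came from male C57Bl6/j mice, and each was hybridised alone to a 1-colour Agilent array after 25 ng of its RNA was labelled with the dye Cy3. The 7 Lean samples came from mice given free access to chow with 3% fat by weight. For the 8 DIO samples the mice ate an obesogenic high-fat diet in which saturated fatty acids were abundant. The labels leave DIO-R unexplained, and its 8 samples are taken to be the diet-fed mice that were limited to 60% of their free energy intake. The labels name no altered gene in any group, and ages are not given in the sources used here. The papilla was cut out after elastase and dispase had loosened the lingual epithelium from the connective tissue beneath, and how much connective tissue stayed on each sample is not given. Nothing states that the samples are separate animals, so the p-values measure the spread between these samples, which may be technical.

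Small leucine-rich proteoglycans have a curved core of leucine-rich repeats that lies along collagen fibrils and controls how thick they grow and how they are spaced. Most carry chains of keratan sulfate or of chondroitin or dermatan sulfate, and several also bind growth factors such as TGF-beta. In skin, cornea and tendon they are made mainly by fibroblasts and related matrix-making cells, which in the tongue lie in the connective tissue core of a papilla beneath its epithelium.

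Each value rests on a single probe of 60 bases, so the probes are shown first, with positions in mouse build mm9 from the array files. They lie at chr10:97035210-97035269 for Lum, chr10:96980233-96980292 for Dcn, chrX:70738554-70738613 for Bgn, chr1:135943998-135944057 for Fmod, chr13:49719549-49719608 for Ogn, chr1:135806855-135806914 for Prelp and chr13:49662479-49662538 for Aspn. The Prelp probe lies on the minus strand and the others on the plus strand. Dcn and Bgn are given whole, and the other 5 by their first 30 bases, 5′ to 3′. Capitals mark in Dcn the stop codon TAA, which lies in the reading frame that starts at the first base of the probe, and in Prelp and Aspn the letters AATAAA of the usual polyadenylation signal.
Lum: taagcatttgcacggttacttagtgaaact
Fmod: ggcaagcgtggttttcaaaacatgagaaag
Prelp: gaAATAAAgtcatatggaaaacacccagca
Dcn: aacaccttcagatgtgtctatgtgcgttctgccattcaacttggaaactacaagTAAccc
Bgn: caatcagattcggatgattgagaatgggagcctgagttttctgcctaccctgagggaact
Aspn: ctcaactcatAATAAAgcttcaagtattca
Ogn: cattaaagcatctgtgaactgtaaggccac
The Dcn probe thus spans the end of the decorin reading frame. AATAAA occurs, on the probe strand, in 2 of the 7 member probes and in 10.06% of the 55681 probes of the array. Exons and untranslated regions were not looked up for these probes.

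All samples had the markers of the labelled tissue. The 10 taste cell markers were well above background on every array, and so were 19 fibroblast, 20 differentiated keratinocyte and 12 skeletal muscle markers. The arrays lay on 3 slides of 8, 8 and 7, correlated with one another between 0.96 and 0.991, and had 66.9% to 78.4% of their probes well above background. DIO 1 and DIO 6 stood apart as the samples with the lowest summed taste cell markers (76.9 and 88.3 times the array's 75th percentile, against 95.9 to 126 in the other samples). Results without DIO 1 and DIO 6 are given where they change a direction. Other samples stood apart by other markers. DIO-R 5 had the lowest summed skeletal muscle markers (299) and adipocyte markers (5.15). DIO 10 and DIO-R 5 had the lowest summed von Ebner gland markers (786 and 921, against 1540 to 3051 in the other samples). Over all genes 1 passed an adjusted p under 0.05 in DIO against Lean, 17 in DIO-R against DIO (6 higher) and 36 in DIO-R against Lean (15 higher). In the authors' value table the counts for DIO-R were 26 (13 higher) and 42 (23 higher).

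Lumican, the keratan sulfate proteoglycan that spaces collagen fibrils in the cornea and skin, had the largest difference of the 7 between the fed groups. Levels are log2 probe intensities relative to the array's own 75th percentile, which is 0 on this scale, and the height of 1 gene's level against another's is not read as more or less RNA. Lum lay at 3.22, 4.19 and 4.74 (lowest, median and highest) in Lean, at 4.35, 5.08 and 5.34 in DIO, and at 4.39, 4.80 and 5.33 in DIO-R. Of the 8 DIO samples 7 lay above every Lean sample, DIO 3 being the exception, and the lowest levels of all were those of Lean 9 and Lean 10. The group means were 4.07 ± 0.66 in Lean (SD, n = 7), 5.03 ± 0.33 in DIO and 4.85 ± 0.34 in DIO-R (SD, n = 8 each). Lum was thus 1.94-fold higher in DIO than in Lean, a log2 difference of 0.96 ± 0.23 (SE; 95% interval 0.49 to 1.43). As Lum was chosen for that difference, it is given as a description.

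**Figure D1:**
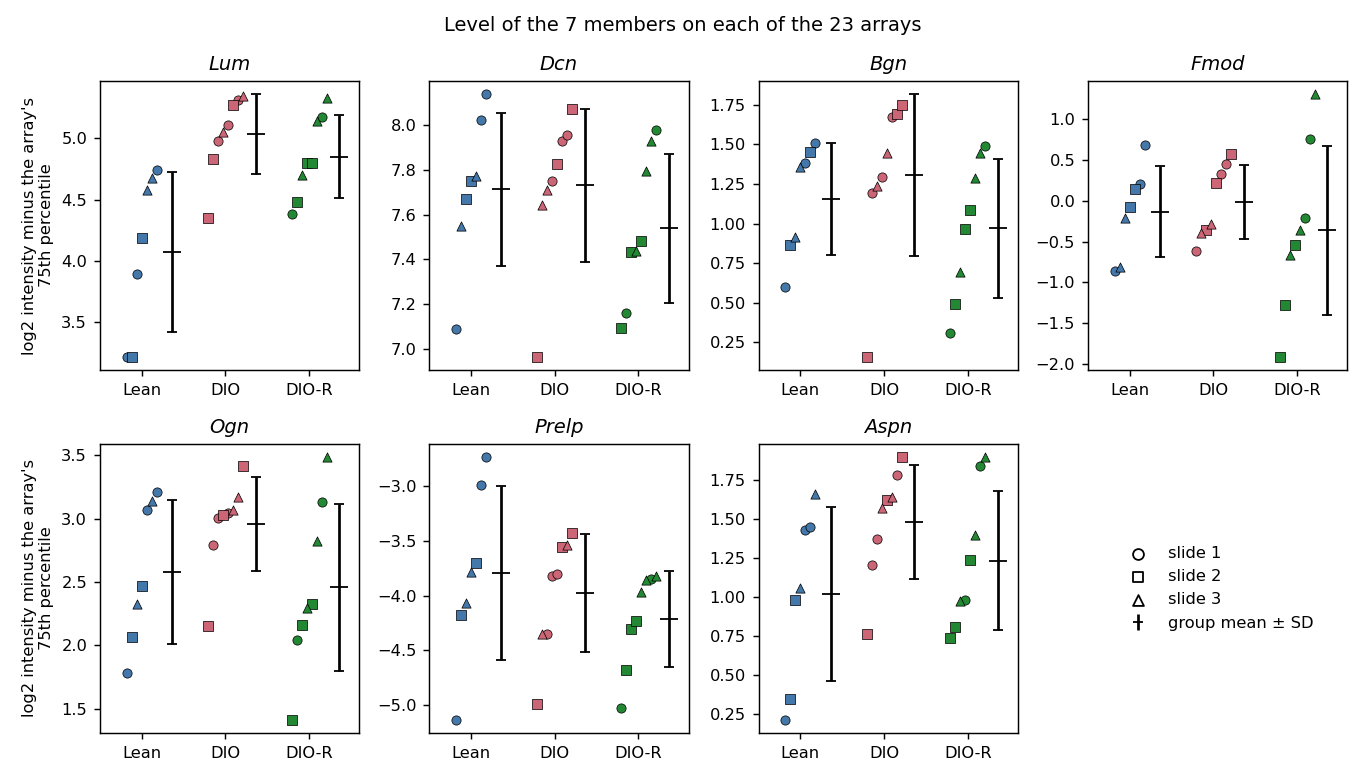
Level of each proteoglycan gene on each array, as log2 intensity minus the array's 75th percentile, with 1 panel per gene and its own vertical scale. Points are samples (circles, squares and triangles for slides 1, 2 and 3) and bars are group means ± SD. For Lum the Lean samples spread from 3.22 to 4.74 while the DIO samples start at 4.35, and for Dcn the 3 groups cover nearly the same range.

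In DIO-R, Lum stayed near its level in DIO. DIO-R lay 0.18 ± 0.22 (SE) below DIO, and the difference did not pass (95% interval -0.64 to 0.27, limma adjusted p = 0.767). Against Lean, DIO-R lay 0.78 ± 0.23 (SE) higher, 1.71-fold, with 8 of 8 DIO-R samples above the Lean mean and 5 above every Lean sample. That difference did not pass over all genes (limma adjusted p = 0.237), and it shares its Lean samples with the comparison that chose Lum. The order of the means was DIO, DIO-R and Lean, and the first 2 did not differ beyond their spread. Within slides 1, 2 and 3, Lum lay 1.19, 1.11 and 0.57 higher in DIO than in Lean and 0.83, 0.99 and 0.43 higher in DIO-R than in Lean, with 2 or 3 samples of a group per slide. DIO-R lay below DIO on each slide, by -0.36, -0.13 and -0.14.

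Fibromodulin, which binds collagen at a site shared with lumican, had a smaller mean difference between DIO and Lean. The 2 genes were not tested against each other, and Lum was chosen for its difference. Fmod levels were -0.86, -0.07 and 0.68 (lowest, median and highest) in Lean, -0.62, -0.03 and 0.57 in DIO, and -1.92, -0.45 and 1.31 in DIO-R. The DIO-R samples were thus the most spread, with an SD of 1.03 against 0.45 in DIO and 0.56 in Lean, and they lay on both sides of the other groups. DIO differed from Lean by 0.12 ± 0.36 (SE), with a 95% interval of -0.64 to 0.88 that overlaps that of Lum. DIO-R differed from DIO by -0.35 ± 0.35 (SE, limma adjusted p = 0.726). Within slides 1, 2 and 3 the latter was 0.22, -1.39 and 0.43, so the sign of the pooled value came from slide 2.

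Prelp, a relative with an amino end rich in proline and arginine that binds heparan sulfate, came closest to background: all 7 Lean samples, but only 7 of 8 in DIO and 7 of 8 in DIO-R, had it well above background, and the other 6 genes were so on all 23 arrays. Its levels were -5.13, -3.78 and -2.73 (lowest, median and highest) in Lean, -4.99, -3.81 and -3.43 in DIO, and -5.02, -4.10 and -3.82 in DIO-R. The 3 groups overlapped widely. Prelp was the 1 member lower in DIO than in Lean, by -0.18 ± 0.30 (SE). All 8 DIO-R samples lay below the Lean mean, with a difference of -0.42 ± 0.30 (SE; 95% interval -1.04 to 0.20), which did not pass (limma adjusted p = 0.701).

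Decorin and biglycan, the sister proteoglycans that carry chondroitin or dermatan sulfate and bind TGF-beta, had smaller mean differences between DIO and Lean than Lum and Aspn, a ranking that was not tested. Dcn lay at 7.09, 7.75 and 8.14 (lowest, median and highest) in Lean, at 6.96, 7.79 and 8.07 in DIO, and at 7.10, 7.46 and 7.98 in DIO-R. Its difference between DIO and Lean was 0.02 ± 0.17 (SE), with a 95% interval of -0.34 to 0.37, and it turned to -0.08 without DIO 1 and DIO 6. DIO-R lay 0.19 ± 0.17 (SE) below DIO (limma adjusted p = 0.681).

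Bgn lay at 0.60, 1.36 and 1.51 in Lean, at 0.16, 1.37 and 1.75 in DIO, and at 0.31, 1.03 and 1.49 in DIO-R. The lowest DIO sample for both genes was DIO 3, which was also the lowest DIO sample for Lum. Bgn differed by 0.15 ± 0.22 (SE) in DIO against Lean and by -0.33 ± 0.21 (SE) in DIO-R against DIO (limma adjusted p = 0.592).

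Asporin, a relative of decorin that usually lacks a glycosaminoglycan chain and binds TGF-beta and collagen, came next after Lum in DIO against Lean. Aspn lay at 0.21, 1.06 and 1.66 (lowest, median and highest) in Lean, at 0.76, 1.60 and 1.90 in DIO, and at 0.74, 1.11 and 1.90 in DIO-R. It was 0.46 ± 0.23 (SE) higher in DIO than in Lean (95% interval -0.01 to 0.94), with 7 of 8 DIO samples above the Lean mean. The highest DIO and DIO-R samples were level, and DIO-R differed from DIO by -0.25 ± 0.22 (SE, limma adjusted p = 0.692).

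Osteoglycin, also called mimecan, a keratan sulfate proteoglycan of cornea and bone, had the largest difference of the 7 between DIO-R and DIO. Ogn lay at 1.78, 2.47 and 3.21 (lowest, median and highest) in Lean, at 2.16, 3.04 and 3.42 in DIO, and at 1.41, 2.31 and 3.49 in DIO-R. DIO-R held both the lowest and the highest sample. Ogn was 1.41-fold lower in DIO-R than in DIO, a log2 difference of -0.50 ± 0.26 (SE; 95% interval -1.04 to 0.04), which did not pass (limma adjusted p = 0.536). It lay at -0.36, -0.90 and -0.25 within slides 1, 2 and 3. Between DIO and Lean it differed by 0.38 ± 0.27 (SE).

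As a set, 6 of the 7 genes had a higher mean in DIO than in Lean, where 41.1% of all genes did (49.1% after quantile normalization), and their median log2 difference was 0.15 against -0.04 over all genes. No member passed, where 0.00352% of all genes did. At an unadjusted p under 0.05 it was 1 of 7, Lum, beside 8.94% of all genes. The genes were chosen on this contrast, so nothing is read from these shares.

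In DIO-R against DIO all 7 members had a lower mean in DIO-R, where 48.3% of all genes did, with a median of -0.25 against 0.01 over all genes. None passed in limma, where 0.0599% of all genes did, and 0 of 7 had an unadjusted p under 0.05, where 9.72% of all genes did. The single differences, from -0.18 for Lum to -0.50 for Ogn, were all within intervals that include 0. These 7 values share the same DIO samples with the first comparison, and the genes moved together across samples, so they are not 7 separate observations. In DIO-R against Lean 5 of 7 were lower, where 55.4% of all genes were (after quantile normalization 52.3% of all genes were higher), with Lum and Aspn (0.22 ± 0.23, SE) on the higher side. Again none passed, where 0.127% of all genes did, and 1 of 7, Lum, had an unadjusted p under 0.05, where 8.95% of all genes did. For every member and each pair of groups the samples overlapped. The share of all genes whose groups overlap was not computed, so nothing about the members is read from this.

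**Figure D2:**
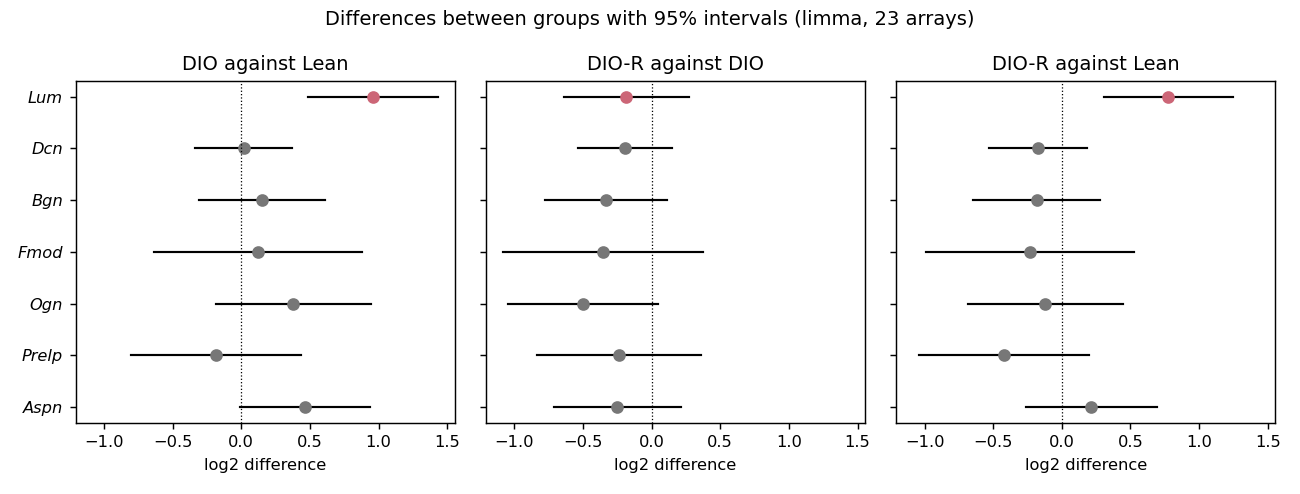
Log2 differences of the proteoglycan genes for the 3 comparisons (points) with 95% intervals (lines) from the limma fit of 23 arrays, Lum in red. The interval of Lum lies above 0 in DIO against Lean (0.49 to 1.43) and in DIO-R against Lean (0.30 to 1.25) and includes 0 in DIO-R against DIO, and the intervals of the other 6 genes include 0 in each comparison.

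Lum and Dcn were set against each other on the same array, since their probes lie 55.0 kb apart on chromosome 10 and both genes are typical of fibroblasts. Lum minus Dcn ran from -4.45 to -2.97 in Lean (median -3.56), from -2.997 to -2.30 in DIO (median -2.65), and from -2.80 to -2.60 in DIO-R (median -2.67). Every DIO-R sample lay above every Lean sample, and DIO overlapped the upper end of Lean by a small margin. The Lean samples were also the most spread, with an SD of 0.57, against 0.22 in DIO and 0.08 in DIO-R. The mean of Lum minus Dcn was 0.94 higher in DIO than in Lean, 0.95 higher in DIO-R than in Lean, and 0.01 higher in DIO-R than in DIO. Without any 1 array, without DIO 1 and DIO 6, and under 3 other normalizations or backgrounds, the first of these ran from 0.80 to 1.05 and the last from -0.05 to 0.07. These values describe unequal change of 2 probes within an array and carry no test, because Lum was chosen for its part in them.

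The same was done with a mean of 19 fibroblast markers that include no member. Lum minus that mean was 1.76 ± 0.44 in Lean (SD, n = 7; 1.104 to 2.24), 2.48 ± 0.19 in DIO (SD, n = 8; 2.08 to 2.65) and 2.45 ± 0.06 in DIO-R (SD, n = 8; 2.36 to 2.53). The gap between DIO and Lean was 0.72, smaller than that of Lum itself. The marker mean was 2.31 in Lean and 2.55 in DIO, and the median of the single marker differences was 0.19. As Lum was chosen for its gap and the markers were not, its larger gap is given as a description. Lum minus Aspn differed less, by 0.49 between DIO and Lean and by 0.56 between DIO-R and Lean.

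**Figure D3:**
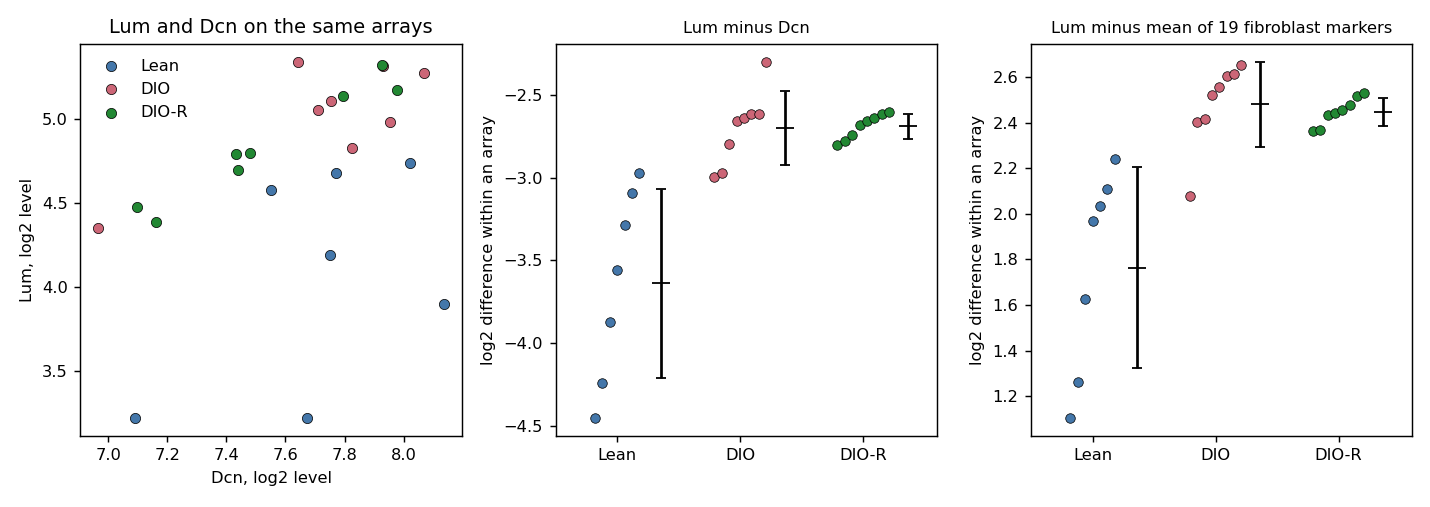
Lum against Dcn on the same array (left, log2 levels), Lum minus Dcn (middle) and Lum minus the mean of 19 fibroblast markers (right), with 1 point per sample and bars for group means ± SD. In the middle panel DIO-R samples fill a narrow band from -2.80 to -2.60, and Lean samples reach down to -4.45.

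Markers of several tissues differed between the groups beside these values. Fewer cells of a type and less RNA per cell cannot be told apart in whole papillae. In DIO against Lean 16 of 19 fibroblast markers were higher, with a median of 0.19. Their summed level, in multiples of the array's 75th percentile, ran from 239 to 454 in Lean, 252 to 456 in DIO and 284 to 414 in DIO-R. None of the 19 passed, and Tcf21, a further fibroblast marker, was left out as too dim.

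Differentiated keratinocyte markers went the other way in DIO, with 19 of 20 lower (median -0.44; summed level 1259 to 2706 in Lean, 782 to 2454 in DIO and 1310 to 2278 in DIO-R), and 20 of 20 were higher in DIO-R than in DIO (median 0.37). Erythrocyte markers were higher in DIO for 9 of 9 (median 1.05; 70.2 to 274 in Lean, 170 to 590 in DIO and 104 to 330 in DIO-R) and lower in DIO-R than in DIO for 9 of 9 (median -0.98). In DIO-R against DIO, where all 7 proteoglycan genes were lower, 17 of 19 fibroblast markers were lower (median -0.16), as were 12 of 12 skeletal muscle markers (median -0.58; 599 to 2424 in Lean, 862 to 2091 in DIO and 299 to 1725 in DIO-R) and 10 of 10 adipocyte markers (median -0.85; 12.03 to 63.1, 18.2 to 41.3 and 5.15 to 27.5). Also lower were 9 of 10 endothelial markers (median -0.20) and 8 of 10 smooth muscle and pericyte markers (-0.19). The von Ebner gland markers were lower for 8 of 8 (median -0.11), or 5 of 8 after quantile normalization. On the higher side were 10 of 10 basal keratinocyte markers (median 0.20) and 8 of 10 taste cell markers (0.27). Of all genes 48.3% were lower in DIO-R than in DIO. None of the genes of these lists passed in those comparisons. Of 11 macrophage and dendritic cell markers 8 were higher in DIO than in Lean (median 0.11), and 1 of the 8 passed. It was the only 1 of the 28388 genes (0.00352%) to pass there. As the lists were chosen with earlier results known, that call is not read as a result about these cells. In DIO-R against DIO 9 of the 11 were lower (median -0.15), and 0 passed. The part of all these markers in the proteoglycan differences was not tested.

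The 7 genes rose and fell together from sample to sample. Over the 23 samples the 21 pairs had a median Pearson's r of 0.70, from 0.20 for Lum with Fmod to 0.91 for Dcn with Bgn. With each group's mean taken away the median was 0.74 (0.28 to 0.92), and 20 of the 21 pairs were positive within each slide, Lum with Fmod being -0.08 on slide 2. Of 42 relations computed, these 21 and the 7 genes with 3 marker means, 18 pairs had an adjusted p under 0.05 by Pearson's r and 19 by Spearman's rho (100000 permutations, Benjamini-Hochberg adjustment). The share of all other gene pairs that would pass was not computed, so these counts are not read as particular to the 7 genes.

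Dcn with Bgn had an r of 0.91 and a rho of 0.86 (each permutation p = 1e-05, the smallest these permutations can give; adjusted p = 4.67e-05 and 8.4e-05), and r was 0.87 without the 2 samples farthest from the median of Dcn. Ogn with Aspn had an r of 0.90 and a rho of 0.93 (each permutation p = 1e-05; adjusted p = 4.67e-05 and 8.4e-05), and r was 0.91 without the 2 farthest samples and 0.88, 0.85 and 0.99 within slides 1, 2 and 3. By levels the 6 pairs of Lum had a median r of 0.44, against 0.73 for the 15 pairs without it, and those levels carry the group difference Lum was chosen for. After group means were taken away the medians were 0.65 and 0.75, and the 6 pairs of Fmod then had the lowest median, 0.56. Lum with Dcn had an r of 0.42 and a rho of 0.46 (permutation p = 0.0473 and 0.0295; adjusted p = 0.0567 and 0.04), and r was 0.66 after group means were taken away. Lum followed Aspn most closely, at an r of 0.81 and a rho of 0.76 (permutation p = 2e-05 and 8e-05; adjusted p = 8.4e-05 and 0.000291), with an r of 0.65 without the 2 farthest samples.

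**Figure D4:**
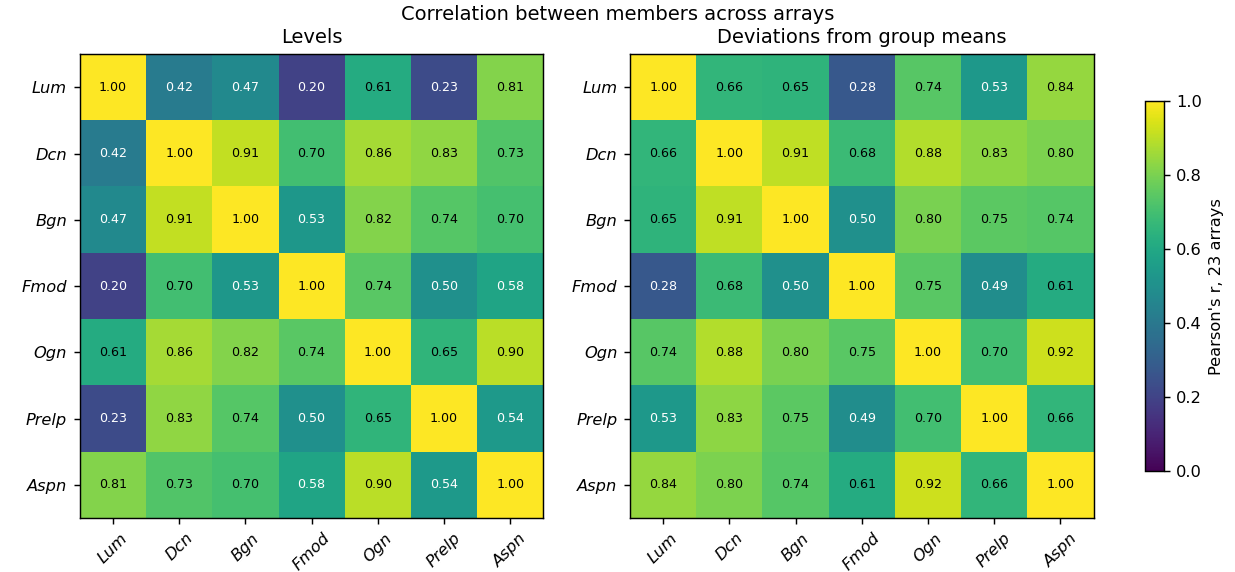
Pearson's r between the proteoglycan genes over 23 arrays, for levels (left) and for deviations from group means (right). The row of Lum is the darkest in the left panel, from 0.20 with Fmod to 0.81 with Aspn, and lighter in the right panel.

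All 7 genes followed the fibroblast marker mean, from an r of 0.49 for Fmod to 0.90 for Aspn, with Lum at an r of 0.73 and a rho of 0.82 (permutation p = 0.00011 and 1e-05; adjusted p = 0.00033 and 8.4e-05). Without the 2 samples farthest in Lum that r was 0.64, and within slides 1, 2 and 3 it was 0.69, 0.65 and 0.90. Against the differentiated keratinocyte mean the 7 were negative, from -0.60 for Aspn to -0.21 for Fmod. With the erythrocyte mean, r ran from -0.03 for Prelp to 0.49 for Ogn, with Lum and Aspn at 0.48 each. For Lum that r had a rho of 0.50 beside it (permutation p = 0.0211 and 0.018; adjusted p = 0.0274 and 0.0261). The same r was 0.40 without the 2 samples farthest in Lum and 0.31 after group means were taken away. The permutations moved samples across groups, so each p-value of Lum with a gene or marker mean includes the group difference Lum was chosen for. Those p-values are given as a description. These samples share a dissection and the levels share a scaling, and neither was separated from the genes' own changes.

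By the likeness of their levels to those of Lum over the 23 arrays, the 10 nearest genes were Igfbp5 (r = 0.94), Cpxm1 (0.94), Fkbp14 (0.93), Ctsk (0.93), Gm10808 (0.92), Col3a1 (0.91), Pcolce (0.91), Col14a1 (0.90), Lgals1 (0.89) and Postn (0.89). Igfbp5 is a binding protein of insulin-like growth factors, Fkbp14 an isomerase of the endoplasmic reticulum that acts on collagen, Ctsk the collagen-cutting protease cathepsin K, and Col3a1 the chain of type III collagen. By deviations from group means they were Rcn3 (0.92), Ccdc80 (0.92), Islr (0.92), Tmem119 (0.91), Igfbp5 (0.91), Col3a1 (0.91), Emilin3 (0.91), Fstl1 (0.90), Ctsk (0.90) and Cpxm1 (0.89). Col3a1, Cpxm1, Ctsk and Igfbp5 were in both, 40% of each. None of the other 6 members was among them: by levels Aspn ranked 62, Ogn 573, Bgn 1414, Dcn 1895, Prelp 4243 and Fmod 4853 among the genes nearest to Lum. By deviations from group means the members ranked nearer, with Aspn at 54, Ogn at 340, Dcn at 661, Bgn at 698, Prelp at 1277 and Fmod at 3760. Cpxm1, a secreted member of the carboxypeptidase family, differed by 0.97 ± 0.25 (SE) in DIO against Lean, 0.91 ± 0.25 (SE) in DIO-R against Lean and -0.06 ± 0.24 (SE) in DIO-R against DIO. It did not pass in any (limma adjusted p = 0.198, 0.202 and 0.939). As Cpxm1 was picked for levels like those of Lum, which carry the group difference Lum was chosen for, the likeness of these differences follows from the choice.

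Several members lie next to relatives in the genome, in the order of RefSeq genes. On chromosome 10 the order is Dcn, Lum, Kera and Epyc, with the probes 55.0, 41.0 and 67.7 kb apart. In DIO against Lean, Dcn differed by 0.02, Lum by 0.96 and Kera, which encodes the corneal proteoglycan keratocan, by 0.81 ± 0.41 (SE), while Epyc was not above background on any array. On chromosome 13 the order is Ecm2, Aspn, Omd and Ogn, with probes 34.4, 25.4 and 31.7 kb apart and differences of 0.71, 0.46, -0.16 and 0.38. On chromosome 1 it is Optc, Prelp and Fmod, with probes 13.1 and 137 kb apart, and Optc was above background on 2 arrays.

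The promoters of Aspn and Ogn are shown because these genes, which lie on either side of Omd, varied together most closely of the member pairs on 1 chromosome. The 250 bases before each start are given as RefSeq has them on build GRCm38.p6, plus strand, chr13:49544193-49544442 for Aspn and chr13:49607765-49608014 for Ogn, with capitals for TATAAA and CCAAT on either strand.
Aspn: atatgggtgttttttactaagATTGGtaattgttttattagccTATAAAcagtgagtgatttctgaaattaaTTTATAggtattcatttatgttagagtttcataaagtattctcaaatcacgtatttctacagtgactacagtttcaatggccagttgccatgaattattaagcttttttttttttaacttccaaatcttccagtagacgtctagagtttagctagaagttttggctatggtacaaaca
Ogn: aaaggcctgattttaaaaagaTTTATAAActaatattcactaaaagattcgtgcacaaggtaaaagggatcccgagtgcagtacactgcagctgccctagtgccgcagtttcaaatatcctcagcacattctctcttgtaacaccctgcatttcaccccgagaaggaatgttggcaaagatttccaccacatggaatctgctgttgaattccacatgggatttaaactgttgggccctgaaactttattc
TATAAA, the letters of the usual TATA box, occurs in both, and in 12.4% of the 32851 promoters of the same length. In Ogn the matches on the 2 strands overlap, starting 227 and 229 bases before the start, and in Aspn they start 207 and 178 bases before it. CCAAT occurs in Aspn and Prelp (33.8% of all promoters), GGGCGG, the letters of the usual Sp1 site, in Bgn (32.7%), and TGANTCA, those of the usual AP-1 site, in 0 of the 5 members with a sequence (6.75%). Promoters of Lum and Dcn were not used here. A match describes letters in a window and is no evidence of a bound factor.

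The other genes of the pathway were taken from lists, given here by counts and medians. No gene of these pathway lists passed in any comparison. Collagens that the proteoglycans coat were the most one-sided list by direction. In DIO against Lean 11 of 11 fibrillar and associated collagens were higher (median 0.49), where 41.1% of all genes were. At an unadjusted p under 0.05, 5 of 11 collagens and 4 of 9 other small leucine-rich proteoglycans were higher. So were 3 of 12 proteases, 3 of 19 collagen maturation genes and 0 of 10 receptors. Of all genes 8.94% had such a p in either direction. The lists were chosen with earlier results known, so nothing is read from these counts. In DIO-R against DIO 10 of 11 collagens were lower (median -0.20), where 48.3% of all genes were. In DIO-R against Lean 10 of 11 were higher (median 0.25). Col3a1 differed by 0.73 ± 0.23 (SE, limma adjusted p = 0.343) and Col6a3 by 0.66 ± 0.27 (SE, limma adjusted p = 0.468) in DIO against Lean. Of 19 collagen maturation genes 13 were higher in DIO (median 0.10). Among them Serpinh1, the collagen chaperone of the endoplasmic reticulum, differed by 0.61 ± 0.13 (SE, limma adjusted p = 0.111) and Pcolce, which speeds the trimming of procollagen, by 0.63 ± 0.20 (SE, limma adjusted p = 0.334).

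The other small leucine-rich proteoglycans were higher in DIO for 7 of 9 kept (median 0.21), led by Kera and by Podnl1, a podocan relative, at 0.72 ± 0.25 (SE, limma adjusted p = 0.388). In DIO-R against DIO 7 of these 9 were lower (median -0.29). Other matrix proteoglycans and glycoproteins were higher in DIO for 17 of 20 (median 0.18). Postn, which encodes periostin, a matrix protein that binds collagen, differed by 0.77 ± 0.28 (SE) and Vcan, the large proteoglycan versican, by 0.73 ± 0.26 (SE), with limma adjusted p of 0.401 and 0.4.

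Genes that build the sugar chains moved little as lists. Of 22 genes for the linker and for chondroitin or dermatan sulfate 16 were higher in DIO (median 0.05), and Chst12, a chondroitin sulfotransferase, differed by 0.43 ± 0.24 (SE) in DIO against Lean and by -0.44 ± 0.23 (SE) in DIO-R against DIO. Chpf, a chondroitin polymerizing factor, differed by -0.30 ± 0.13 (SE) in the latter. Of 8 keratan sulfate genes 6 were higher in DIO, with a median of 0.07 that turned to -0.01 (4 of 8) with normexp background. B3gnt7, which extends keratan sulfate, differed by 1.18 ± 0.46 (SE, limma adjusted p = 0.444), and Chst4, a sulfotransferase, by -0.87 ± 0.88 (SE) in DIO-R against DIO.

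Proteases and growth factor genes were mixed. Of 12 proteases that cut these proteoglycans 7 were higher in DIO (median 0.13), among them Mmp3, the matrix metalloproteinase stromelysin, at 0.88 ± 0.27 (SE, limma adjusted p = 0.319). Adamts4, an aggrecanase, differed by -0.79 ± 0.23 (SE, limma adjusted p = 0.382) in DIO-R against DIO. Of 12 genes of the TGF-beta ligands, receptors and latency proteins 8 were higher in DIO (median 0.06). Ltbp2, a latent TGF-beta binding protein relative, differed by 0.60 ± 0.25 (SE) and Ccn2, a matrix protein known as connective tissue growth factor, by -0.36 ± 0.12 (SE). Of 10 receptors reported to bind these proteoglycans 8 were lower in DIO (median -0.05, 6 of 10 lower after quantile normalization). Cd44, the hyaluronan receptor, differed by 0.21 ± 0.14 (SE) in DIO against Lean, and Egfr, the epidermal growth factor receptor, by 0.23 ± 0.07 (SE, limma adjusted p = 0.423) in DIO-R against DIO. The endothelial receptor gene Kdr stands in both the receptor list and the endothelial marker list.

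**Figure D5:**
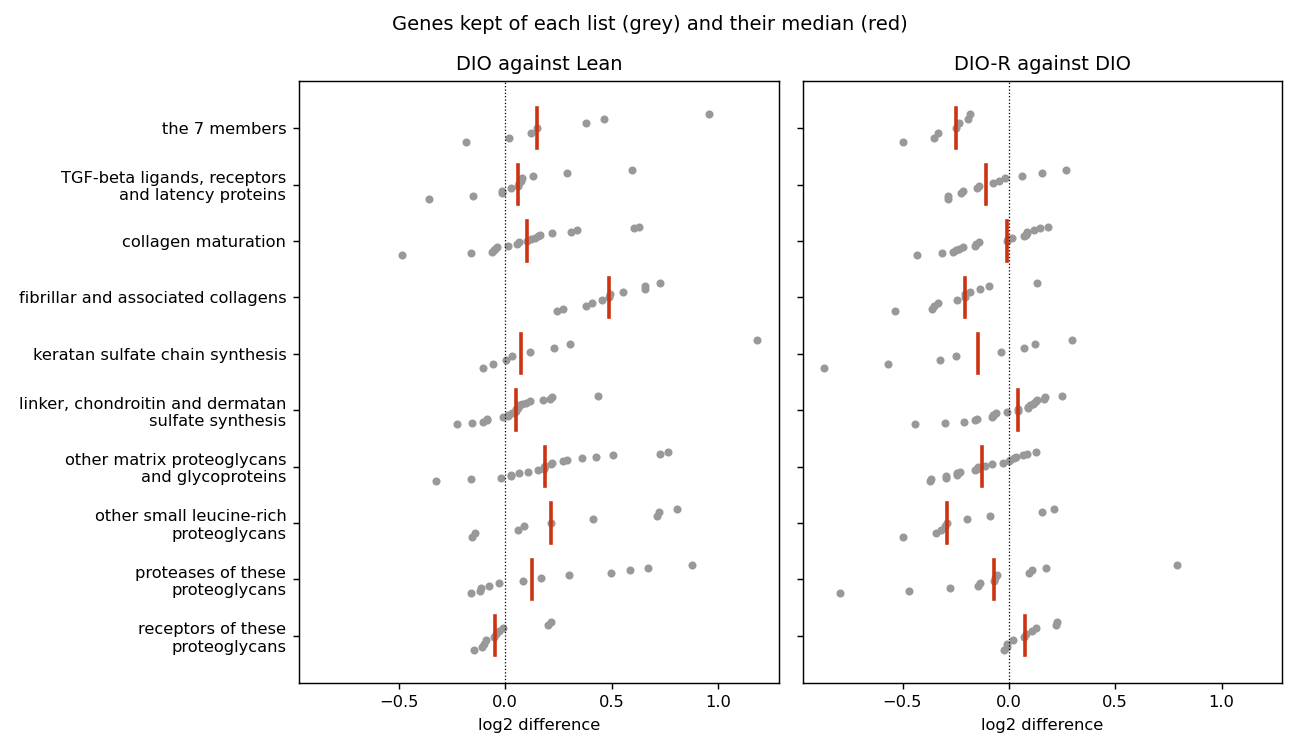
Log2 differences of the genes kept in each list (grey points) and the list median (red bar), for DIO against Lean (left) and DIO-R against DIO (right). The 11 collagens all lie to the right of 0 in the left panel with a median of 0.49, and the 7 members all lie to the left of 0 in the right panel with a median of -0.25.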

How the data were processed

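Each scanner file holds 62976 spots, and per the file headers the authors' background-subtracted intensity came from Feature Extraction 10.10.1.1 of Agilent (build mm9). Deposited intensities were taken as log2 values minus each array's 75th percentile over spots other than the 3671 controls. Spots of a probe were averaged, and a gene stood for its probe with the highest mean. Symbols were updated through RefSeq accessions (20660 matched, 2168 changed). Genes well above background on at least 7 of 23 arrays were kept (28388 of 35019). No spot was saturated.

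For 35829 probes the authors also deposited normalized log2 values, including all 7 members. Their array medians lie between 7.63 and 7.64, and limma is named in the submitters' processing notes. The exact normalization steps are not given in the sources used here.

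Groups were compared with limma (version 3.58.1 under R 4.3.3; lmFit, then eBayes, 1 mean per group, all 23 arrays, two-sided), with Benjamini-Hochberg adjustment over the genes kept and a threshold of 0.05. The scripts were tested on simulated data. Slide, background, normalization, filter, probe rule, replicate number, variance model, array weights and left-out samples were varied. Files were read with data.table (version 1.17.8), correlations used Python 3.11.15 and scipy 1.17.1, and plots matplotlib 3.10.9. The number of arrays limits the precision.

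The members and lists were chosen with earlier results of these data known. From each pathway list the text names the 2 genes with the largest difference in DIO against Lean or DIO-R against DIO, and any that passed, and the 10 genes most like Lum by each measure. The members named in the text have 1 probe each, so no further probe could be tried.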

Additional observations from a re-analysis of the deposited data

Results flagged for a closer look

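Of 27 checks for a sample far from the others of its group, 3 found one, and chance gives about 1 in 20 groups. In DIO 3, Bgn lay at 0.16 and Dcn at 6.96, each below the other 7 DIO samples, with a gap to the nearest of them of 0.65 and 0.61 of the group's range (critical value 0.526). As Dcn and Bgn varied together (r of 0.91), these 2 flags are not separate observations. DIO 3 was also the lowest DIO sample for Lum, Ogn, Prelp and Aspn, and for Fmod it was not. Among the DIO samples it also had the lowest summed fibroblast markers (252) and the highest summed differentiated keratinocyte markers (2454). The part of these in its low values was not tested. Lum minus the fibroblast marker mean lay at 2.08 in DIO 10, below the other 7 DIO samples by 0.56 of the range.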

How the results depend on the processing

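Lum kept its direction under all 34 alternatives in each comparison and never passed: 0.80 to 1.07 in DIO against Lean (adjusted p 0.0795 to 0.857), -0.28 to -0.12 in DIO-R against DIO (0.565 to 0.925) and 0.58 to 0.89 in DIO-R against Lean (0.136 to 0.518). No member passed under any of them, and all 7 stayed lower in DIO-R than in DIO. Nothing states whether the replicate numbers pair the samples. Of 18 same-numbered pairs 4 correlate above 0.1, beside 49 of 158 differently numbered pairs, and these correlations cannot exclude a pairing. With the replicate block, 3 members were higher in DIO than in Lean, Bgn, Dcn and Fmod lay at -0.0029, -0.13 and -0.15, and the genes called were 0, 4 and 9 in the 3 comparisons. For DIO against Lean the genes called were 2 with normexp, 9 in the authors' table, 3 with the slide block, 3 with trend and robust eBayes, 61 with array weights and 27 without DIO 1 and DIO 6, an alternative chosen after seeing the data. For DIO-R against DIO they were 27 with quantile normalization, 26 in the authors' table, 38 with array weights and 10 without DIO 1 and DIO 6, and for DIO-R against Lean 109 with array weights and 58 without DIO 1 and DIO 6. With 1 sample left out these counts ran from 1 to 37, 11 to 24 and 26 to 64, with 37, 17, 8 and 3 for the first without DIO 6, Lean 7, DIO-R 6 and DIO 3 and 2 without DIO-R 2 or 3, 11 for the second without DIO 1, 6 or 8 or DIO-R 5, 8 or 10, and 64 for the last without Lean 3. With 1 sample left out, 4 to 6 members were higher in DIO than in Lean, Dcn ran from -0.086 to 0.13 and Fmod from -0.0018 to 0.26, and Ogn in DIO-R against Lean ran from -0.27 to 0.029. Dcn was negative without DIO 1, 6 or 7 or Lean 3 or 9, and at -0.076 without DIO 1 and DIO 6. The cause of these shifts was not tested.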
